A study of Mus musculus with 6 samples.

Results

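The 43 genes described here are genes of G2 phase and mitosis: cyclins and their kinase, mitotic kinases, spindle checkpoint and kinetochore proteins, and proteins of the spindle, of anaphase and of cytokinesis. The choice was made by gene symbol from known roles, with earlier results of these data known, and each symbol was matched to its Ensembl gene ID in the files. All 43 were found in all 6 libraries, among 54532 gene IDs in one kind of table and 21950 in the other. A filter of at least 1 FPKM (fragments scaled to transcript length and to the size of the library) on the mean of the 6 libraries left 39 of them for testing. The 4 that were not tested, Cdc25c, Cenpf, Spc24 and Espl1, are given by their values.

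Cells that prepare to divide transcribe the mitotic genes late in the cycle, and cells that leave the cycle shut them down through repressor complexes that bind their promoters. Cyclin-dependent kinase 1 with cyclin B drives entry into mitosis, the spindle checkpoint holds the cell until every chromosome is attached, and the anaphase-promoting complex then ends mitosis by marking cyclin B and securin for destruction. The 3T3-L1 line is a mouse fibroblast line that stops at confluence, passes through a limited round of division after hormonal induction and then leaves the cycle as it becomes adipocytes, so that its mature cultures contain few dividing cells.

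All 6 libraries are from wild-type (WT) 3T3-L1 cells labelled as adipocytes, 3 as control and 3 as chronic intermittent hypoxia (CIH), a regime of repeated spells of low oxygen. Both groups shared growth in 10% serum, induction with insulin, and maintenance medium with 0.1 µM insulin until day 8, and each directional library took 1.3 µg of total RNA. The oxygen levels, the length of the cycles and whether replicates were separate cultures were not given in the sources used here. Accordingly, p-values cover the spread among these libraries alone, and that spread may be technical. Replicates 1 and 2 of both groups were deposited as gene tables and replicate 3 of both groups as transcript tables, which were summed per gene here, and levels cannot be compared across the 2 kinds.

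Library depth behind the gene tables was about 25709000 to 27964000 fragments, and the depth of the replicate 3 pair is unknown. Total FPKM was 319607 to 361231 in the gene tables, 850766 in control 3 and 550322 in CIH 3. CIH 3 stood apart in its markers of differentiation. Its 12 adipocyte markers summed to 715 FPKM against 31704 in control 3, whereas they summed to 8862 and 9273 in control 1 and 2 and to 8393 and 7464 in CIH 1 and 2. None of the 12 was at 0 in any library. In RNA from a whole culture, fewer cells of a type and less RNA per cell cannot be told apart.

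The promoters of several of these genes are shown first. The windows run from 250 bases before to 50 bases after the annotated start, 5′ to 3′ on the gene's own strand, from RefSeq on GRCm38.p6. Capitals mark 2 motifs known from mitotic genes: the cell cycle homology region, searched as TTTGAA, its reverse complement TTCAAA, or TTCGAA, and the CCAAT box, searched as CCAAT or its reverse complement ATTGG. Top2a, Ube2c, Ckap2 and Mki67 are among the 5 members with the largest changes, Ccnb2 holds evenly spaced CCAAT boxes ahead of a cell cycle homology region, and Cenpa holds both motifs although it did not pass the test. Top2a lies on the minus strand at chr11:99024140-99024439, Ube2c on the plus strand at chr2:164769679-164769978, Ckap2 on the minus strand at chr8:22185770-22186069, Mki67 on the minus strand at chr7:135716330-135716629, Ccnb2 on the minus strand at chr9:70421505-70421804 and Cenpa on the plus strand at chr5:30666636-30666935.
Top2a: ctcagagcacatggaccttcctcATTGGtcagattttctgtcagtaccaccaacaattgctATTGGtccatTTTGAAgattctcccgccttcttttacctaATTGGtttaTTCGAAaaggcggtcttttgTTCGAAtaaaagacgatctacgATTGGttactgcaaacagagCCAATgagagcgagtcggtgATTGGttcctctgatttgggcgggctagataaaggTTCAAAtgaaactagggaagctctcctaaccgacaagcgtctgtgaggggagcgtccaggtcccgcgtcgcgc
Ube2c: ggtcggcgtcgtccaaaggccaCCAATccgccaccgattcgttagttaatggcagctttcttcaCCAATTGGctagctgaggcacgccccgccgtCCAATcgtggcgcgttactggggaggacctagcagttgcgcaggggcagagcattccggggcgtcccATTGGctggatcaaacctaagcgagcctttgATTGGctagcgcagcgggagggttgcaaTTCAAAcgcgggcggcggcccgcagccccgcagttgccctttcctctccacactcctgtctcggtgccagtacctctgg
Ckap2: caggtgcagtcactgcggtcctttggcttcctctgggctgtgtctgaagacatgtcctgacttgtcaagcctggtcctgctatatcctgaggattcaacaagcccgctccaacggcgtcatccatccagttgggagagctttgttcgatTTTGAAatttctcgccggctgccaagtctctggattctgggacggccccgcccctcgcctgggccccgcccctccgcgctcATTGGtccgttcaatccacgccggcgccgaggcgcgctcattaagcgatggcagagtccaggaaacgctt
Mki67: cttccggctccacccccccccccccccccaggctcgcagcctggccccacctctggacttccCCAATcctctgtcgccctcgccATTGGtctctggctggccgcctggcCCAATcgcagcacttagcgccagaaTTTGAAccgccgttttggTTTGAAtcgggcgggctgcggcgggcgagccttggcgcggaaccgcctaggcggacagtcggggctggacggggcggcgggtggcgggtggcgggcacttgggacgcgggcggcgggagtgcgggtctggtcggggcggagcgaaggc
Ccnb2: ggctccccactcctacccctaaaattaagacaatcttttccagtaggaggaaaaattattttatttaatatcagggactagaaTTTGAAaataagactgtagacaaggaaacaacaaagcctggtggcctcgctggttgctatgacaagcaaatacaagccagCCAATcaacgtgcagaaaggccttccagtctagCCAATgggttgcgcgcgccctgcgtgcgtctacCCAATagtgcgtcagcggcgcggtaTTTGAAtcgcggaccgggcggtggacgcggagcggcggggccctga
Cenpa: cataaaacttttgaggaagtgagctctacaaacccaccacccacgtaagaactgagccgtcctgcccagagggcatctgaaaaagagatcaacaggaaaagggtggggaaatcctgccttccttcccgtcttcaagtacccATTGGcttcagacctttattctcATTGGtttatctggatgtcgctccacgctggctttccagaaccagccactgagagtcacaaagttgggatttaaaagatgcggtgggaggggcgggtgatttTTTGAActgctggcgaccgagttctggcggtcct

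Of the 43 members, 35 had a window in the table, in 37 windows. The other 8 are Ccna2, Cdc25c, Foxm1, Aurkb, Incenp, Spc24, Pimreg and Tpx2. A cell cycle homology region was found in 27 of the 37 windows (73.0%), against 19.2% of all 32851 windows of the table. CCAAT was found in 28 windows (75.7%), against 37.4% of all windows, and both motifs in 25 (67.6%), against 7.53%. A cell cycle homology region within 50 bases of the start was found in 25 windows (67.6%), against 5.31% of all windows. Overlapping matches were all counted: 1 pair of CCAAT matches on opposite strands, in the Ube2c window, and 1 CCAAT match with a homology region. The map of motif matches along the promoter windows shows most homology regions close to the start and most CCAAT boxes upstream of them. A match describes letters in the window and not a bound site. The motifs are known from mitotic genes and the members were chosen by known roles, so these shares give no independent result.

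**Figure D1:**
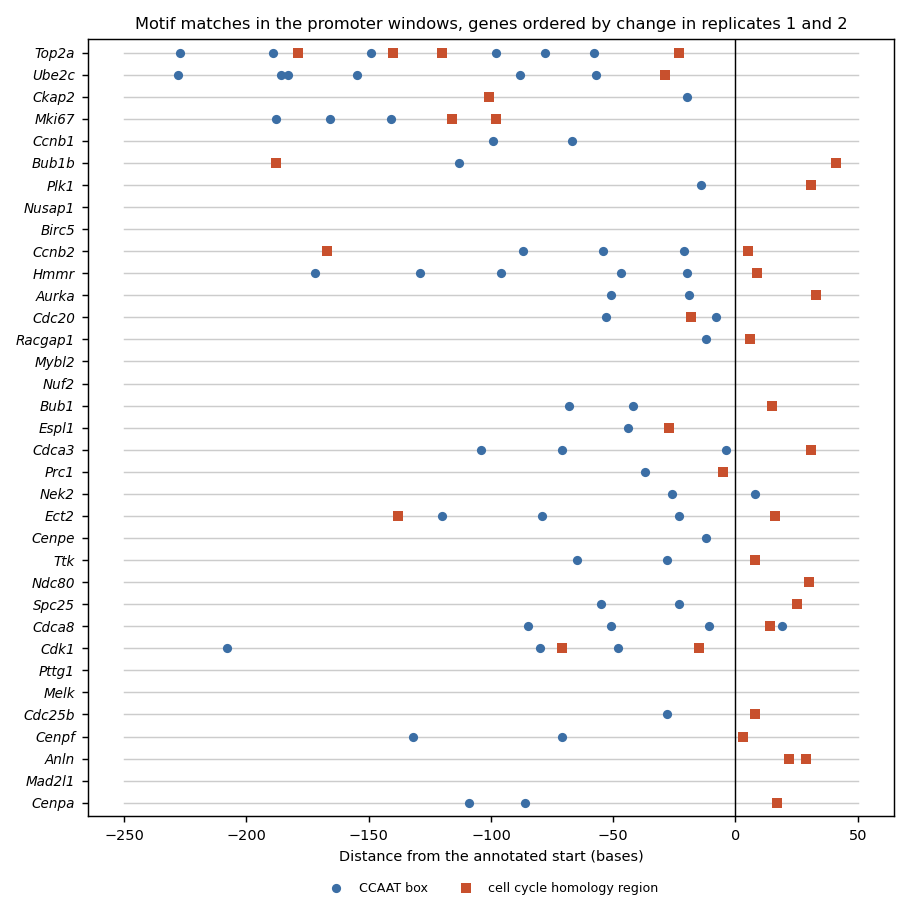
Matches to the CCAAT box (blue circles) and the cell cycle homology region (red squares) in 1 promoter window for each of 35 members, by distance in bases from the annotated start (x axis), with genes ordered from the largest to the smallest log2 change in replicates 1 and 2. Homology regions were matched in 25 of the 35 genes and CCAAT boxes in 26, and genes with and without matches are found along the whole order.

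In replicates 1 and 2, 38 of the 39 tested members rose in CIH, 0 fell, and only Cenpa did not pass the test. No member was lower at an unadjusted p under 0.05 either, against 2941 of all 10976 tested genes. The filter averages both groups, so members that were low in the controls could pass through their CIH values. Pimreg, at 0.569, 0.537 and 0.457 FPKM in control 1, 2 and 3, is 1 of these. Mybl2, Nek2, Melk, Bub1, Bub1b, Cenpe, Ndc80, Nuf2, Hmmr and Ckap2 also stood under 1 FPKM in control 1, 2 and 3. They too passed the filter only through their CIH values. With no filter on low values, 40 of 43 members rose, against 1989 of all 15813 genes then tested. The filter also averages both kinds of table, and Ttk, Cenpe, Ndc80 and Nuf2 passed it only through the replicate 3 pair. With the filter on the 4 gene-table libraries alone, these 4 were not tested, Espl1 was, and 35 of 36 members rose. Of all 10976 tested genes, 18.2% rose and 20.9% fell by the same rule, an adjusted p under 0.05 in limma with Benjamini-Hochberg adjustment over all of them. The split over all genes, 1995 that rose and 2297 that fell, depended on scaling: it was 1368 and 3149 when libraries were scaled by totals and 3078 and 1426 by upper quartile, where 35 and 39 members rose. All changes are differences of log2(FPKM + 1), a scale that understates the change of genes at low levels. The 43 members had a median log2 change of 0.77, with a range of 0.15 to 1.70, and the median over all tested genes was -0.01. As a ratio of mean FPKM, the median of the 43 was 2.58, with a range of 1.19 to 6.20. In all 39 tested members, as in the 4 untested ones, both CIH libraries lay above both controls, a pattern shared by 35.1% of all tested genes.

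Summed over the 43 genes, the level was 65.0 and 65.1 FPKM in control 1 and 2 and stood at 147.8 and 153.2 in CIH 1 and 2. In the replicate 3 pair the sum was 70.4 in control 3 and 268.6 in CIH 3. All 43 members were higher in CIH 3 than in control 3, 34 of them by at least 2-fold on the log2 scale. Among the tested members this was 32 of 39, against 21.8% of all tested genes, and 0 members were at least 2-fold lower, against 11.8% of all tested genes. The median log2 difference of the 43 was 1.37, against 0.26 for all tested genes, a distance of 1.10, and the median FPKM ratio was 4.70, with a range of 1.36 to 16.9. With 1 library in each group this pair has no test, and it is the pair in which the adipocyte markers differed most.

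**Figure D2:**
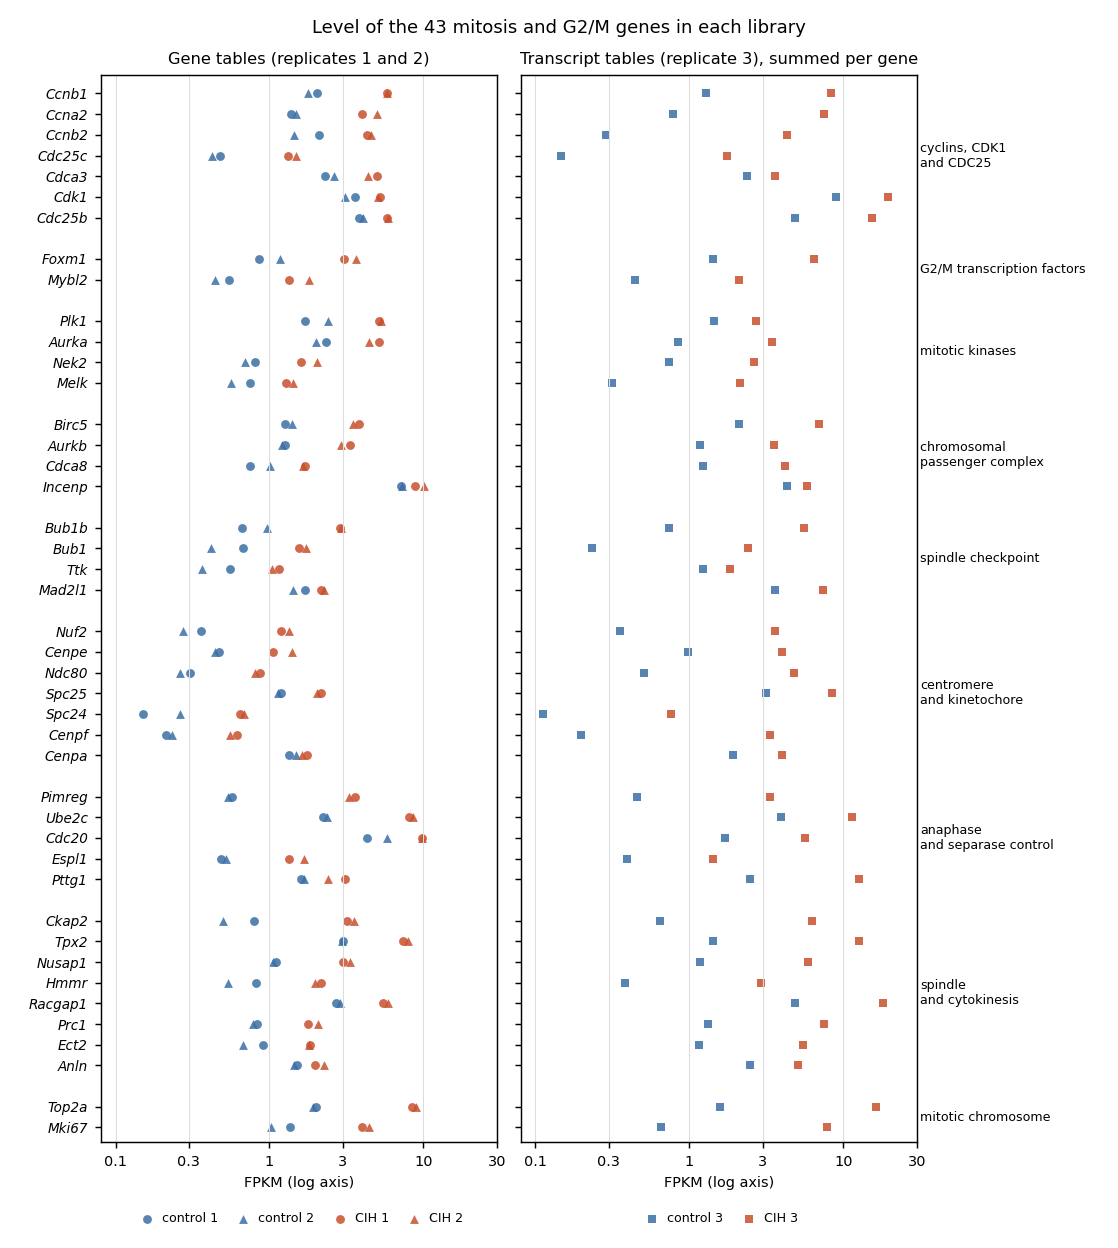
Level of each member in each library in FPKM (log axis), grouped by role, with gene tables (left) and transcript tables (right) on the same scale but not comparable with each other. Blue marks control and red marks CIH, with circles, triangles and squares for replicates 1, 2 and 3; red lies to the right of blue in all 43 genes in both panels.

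Low control levels were common among the 43: the median member stood at 1.18 and 1.14 FPKM in control 1 and 2 and at 3.00 and 2.91 in CIH 1 and 2. These levels rest on a median of 118 fragments per gene in the controls and 310 in CIH, and the thinnest value on 10. Incenp had the highest control level of the 43 in replicates 1 and 2 and one of the smallest log2 changes. Across the 43 genes, which share their libraries and are not independent, the log2 change and the mean control level were hardly related (r = -0.052, rho = 0.13, n = 43). That change is on the log2(FPKM + 1) scale, which understates changes at low levels. By ratio of mean FPKM in replicates 1 and 2, the median was 2.58. The highest control levels, Incenp, Cdc20, Cdc25b and Cdk1, had ratios of 1.31, 1.93, 1.49 and 1.55. The lowest, Spc24, Cenpf, Ndc80 and Nuf2, had 3.18, 2.61, 2.95 and 3.96.

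Among the cyclins, Cdk1 and its activators, all 6 tested genes rose, the 3 cyclins with the largest log2 changes. Ccnb1 (ENSMUSG00000041431, chr13:100778650-100786570 on the minus strand of GRCm38), which encodes cyclin B1, the partner of Cdk1 at mitotic entry, stood at 2.04 and 1.77 FPKM in control 1 and 2 against 5.78 and 5.76 in CIH 1 and 2 and at 1.27 in control 3 and 8.35 in CIH 3. The CIH libraries agreed closely with each other and none came near a control. It rose by a log2 change of 1.22 (SE 0.084, limma adjusted p = 0.00137). Ccna2 encodes cyclin A2, which acts in S phase and up to early mitosis, and it stood at 1.37 and 1.5 FPKM in control 1 and 2 against 3.98 and 4.97 in CIH 1 and 2 and at 0.784 in control 3 and 7.52 in CIH 3. The log2 change of Ccna2 was 1.16 (SE 0.11, limma adjusted p = 0.00282), and CIH 2 was the higher of the CIH libraries. Cyclin B2 (Ccnb2), which also pairs with Cdk1, stood at 2.11 and 1.45 FPKM in control 1 and 2 against 4.32 and 4.55 in CIH 1 and 2 and at 0.287 in control 3 and 4.32 in CIH 3. Both CIH libraries again lay above both controls, and the log2 change in replicates 1 and 2 was 0.98 (SE 0.13, limma adjusted p = 0.00645).

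Cdk1 itself, the kinase of mitotic entry, had a smaller log2 change than its cyclins, from 3.6 and 3.08 FPKM in control 1 and 2 to 5.24 and 5.08 in CIH 1 and 2, an increase of 0.51 (SE 0.094, limma adjusted p = 0.0146). Cdc25b, a phosphatase that activates Cdk1, had a log2 change of 0.48 (SE 0.078, limma adjusted p = 0.0106). The calls of Cdk1 and Cdc25b were lost without CIH 1 or without CIH 2, but not without control 1 or control 2. Without CIH 1 and without CIH 2, the log2 change was 0.49 and 0.53 for Cdk1 and 0.48 and 0.47 for Cdc25b. Cdca3, a trigger of mitotic entry that promotes the loss of the Cdk1 inhibitor Wee1, rose by a log2 change of 0.71 (adjusted p = 0.00685). Cdc25c, the related phosphatase, was not tested and stood at 0.48 and 0.423 FPKM in control 1 and 2 against 1.32 and 1.48 in CIH 1 and 2 and at 0.146 in control 3 and 1.75 in CIH 3. Values in CIH were again the higher ones in each pair.

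Both G2/M transcription factors of the list rose. Foxm1, a forkhead factor that activates mitotic genes, stood at 0.858 and 1.17 FPKM in control 1 and 2 against 3.04 and 3.65 in CIH 1 and 2 and at 1.42 in control 3 and 6.41 in CIH 3. Every CIH value of Foxm1 exceeded every control value of its own kind of table. Its log2 change was 1.11 (SE 0.11, limma adjusted p = 0.00344). Mybl2, or B-Myb, joins the MuvB complex to switch on late cell cycle genes, and it stood at 0.545 and 0.44 FPKM in control 1 and 2 against 1.35 and 1.82 in CIH 1 and 2 and at 0.444 in control 3 and 2.09 in CIH 3. Its log2 change was 0.79 (SE 0.10, limma adjusted p = 0.00601), from control levels under 1 FPKM.

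All 4 mitotic kinases rose. Plk1, the polo-like kinase of centrosome maturation and mitotic entry, stood at 1.7 and 2.39 FPKM in control 1 and 2 against 5.18 and 5.34 in CIH 1 and 2 and at 1.44 in control 3 and 2.7 in CIH 3. The controls of Plk1 were further apart than its CIH libraries, and the groups did not overlap. Its log2 change of 1.05 (SE 0.13, limma adjusted p = 0.00503) was the largest of the kinases, while in the replicate 3 pair it differed by only 0.60, the smallest of the 4. Aurka, the kinase of spindle poles, stood at 2.33 and 2.0 FPKM in control 1 and 2 against 5.15 and 4.46 in CIH 1 and 2 and at 0.841 in control 3 and 3.43 in CIH 3, with a log2 change of 0.87 (SE 0.10, limma adjusted p = 0.00458). Nek2, a centrosome kinase that separates centrosomes before mitosis, stood at 0.809 and 0.696 FPKM in control 1 and 2 against 1.61 and 2.03 in CIH 1 and 2 and at 0.741 in control 3 and 2.62 in CIH 3. CIH 2 was the highest value in the gene tables, and the log2 change was 0.68 (SE 0.092, limma adjusted p = 0.00645). Melk, a kinase of dividing cells, rose by a log2 change of 0.51 (adjusted p = 0.00821).

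The 4 subunits of the chromosomal passenger complex, which corrects faulty attachments of chromosomes and later directs cytokinesis, all rose. Birc5 (survivin), a small subunit that targets the complex to centromeres, stood at 1.27 and 1.41 FPKM in control 1 and 2 against 3.8 and 3.49 in CIH 1 and 2 and at 2.09 in control 3 and 6.98 in CIH 3. Its replicates lay close together within each group, and its log2 change was 0.99 (SE 0.077, limma adjusted p = 0.00181). Aurkb, the kinase of the complex, stood at 1.25 and 1.21 FPKM in control 1 and 2 against 3.35 and 2.93 in CIH 1 and 2 and at 1.17 in control 3 and 3.57 in CIH 3, with a log2 change of 0.89 (SE 0.079, limma adjusted p = 0.00245). Cdca8 (borealin), which binds Birc5, stood at 0.743 and 1.01 FPKM in control 1 and 2 against 1.7 and 1.65 in CIH 1 and 2 and at 1.23 in control 3 and 4.16 in CIH 3. Its log2 change was 0.51 (SE 0.085, limma adjusted p = 0.011), and without CIH 1 it no longer passed (adjusted p = 0.057). Incenp, the scaffold of the complex, had the highest control level of the list in the gene tables and changed from 7.11 and 7.3 FPKM in control 1 and 2 to 8.85 and 10.1 in CIH 1 and 2. Its log2 change of 0.35 (SE 0.090, limma adjusted p = 0.036) passed by a small margin: it was lost with each library left out in turn (adjusted p 0.0707 to 0.162), with the replicate number as a block (adjusted p = 0.0579) and when scaled by totals.

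All 4 genes of the spindle checkpoint rose. Bub1b (BubR1), which inhibits Cdc20 until chromosomes are attached, stood at 0.664 and 0.969 FPKM in control 1 and 2 against 2.88 and 2.91 in CIH 1 and 2 and at 0.741 in control 3 and 5.58 in CIH 3. The CIH libraries were nearly equal and the log2 change was 1.10 (SE 0.097, limma adjusted p = 0.00241). Bub1, the checkpoint kinase at kinetochores, stood at 0.669 and 0.418 FPKM in control 1 and 2 against 1.55 and 1.72 in CIH 1 and 2 and at 0.232 in control 3 and 2.42 in CIH 3, with a log2 change of 0.77 (SE 0.094, limma adjusted p = 0.00503). Ttk (Mps1), the kinase that starts checkpoint signalling, stood at 0.553 and 0.363 FPKM in control 1 and 2 against 1.15 and 1.04 in CIH 1 and 2 and at 1.23 in control 3 and 1.84 in CIH 3. It was the member with the smallest log2 difference in the replicate 3 pair, 0.35, and its log2 change in replicates 1 and 2 was 0.53 (SE 0.078, limma adjusted p = 0.0080). Mad2l1 (Mad2), which binds Cdc20 in the inhibited complex, had a log2 change of 0.33 (SE 0.081, limma adjusted p = 0.0313). Its call was lost in 6 of 14 alternatives, among them the replicate block (adjusted p = 0.0556).

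The centromere and kinetochore genes had the lowest median control level of the role groups, and 4 of the 5 tested ones rose. Nuf2 and Ndc80 encode subunits of the Ndc80 complex, which grips the spindle microtubules. Nuf2 stood at 0.362 and 0.276 FPKM in control 1 and 2 against 1.18 and 1.34 in CIH 1 and 2 and at 0.353 in control 3 and 3.58 in CIH 3, with a log2 change of 0.78 (SE 0.062, limma adjusted p = 0.00191). Ndc80 had a log2 change of 0.52 (SE 0.046, adjusted p = 0.00241), and its FPKM ratio in the replicate 3 pair, 9.48, exceeded that in replicates 1 and 2, 2.95. CIH values of both genes were above control values throughout. Cenpe, a kinesin that moves chromosomes to the spindle equator, stood at 0.473 and 0.443 FPKM in control 1 and 2 against 1.06 and 1.4 in CIH 1 and 2 and at 0.986 in control 3 and 4.0 in CIH 3, with a log2 change of 0.61 (SE 0.083, limma adjusted p = 0.00677). Spc25, another subunit of the Ndc80 complex, stood at 1.18 and 1.14 FPKM in control 1 and 2 against 2.15 and 2.03 in CIH 1 and 2 and at 3.14 in control 3 and 8.44 in CIH 3, with a log2 change of 0.51 (SE 0.061, limma adjusted p = 0.00469).

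Cenpf, a large protein of the outer kinetochore, and Spc24, the partner of Spc25, were too low to be tested. With no filter on low values they passed, as did Cdc25c and Espl1 (limma adjusted p 0.00438 to 0.00859 for the 4). Cenpf stood at 0.212 and 0.234 FPKM in control 1 and 2 against 0.612 and 0.55 in CIH 1 and 2 and at 0.198 in control 3 and 3.35 in CIH 3, and its FPKM ratio of 16.9 in the replicate 3 pair was the highest of the 43. Spc24 stood at 0.151 and 0.264 FPKM in control 1 and 2 against 0.639 and 0.68 in CIH 1 and 2 and at 0.113 in control 3 and 0.757 in CIH 3, the lowest levels of the list in the controls of replicate 1 and 3. Cenpa, the histone H3 variant that marks the centromere, was the exception of the list. It stood at 1.34 and 1.49 FPKM in control 1 and 2 against 1.75 and 1.62 in CIH 1 and 2 and at 1.93 in control 3 and 4.01 in CIH 3. Both CIH libraries exceeded both controls here too, but by a log2 change of only 0.15 (95% interval -0.02 to 0.33, limma adjusted p = 0.136). With upper-quartile scaling it passed narrowly (adjusted p = 0.0495).

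Of the 5 genes that control anaphase and separase, all 4 tested ones rose. Pimreg, a regulator of the metaphase to anaphase transition, stood at 0.569 and 0.537 FPKM in control 1 and 2 against 3.58 and 3.27 in CIH 1 and 2 and at 0.457 in control 3 and 3.32 in CIH 3. Its CIH values were the furthest above the controls of all 43 genes by ratio, 6.2 in replicates 1 and 2, and its log2 change was 1.51 (SE 0.067, limma adjusted p = 0.00067). Ube2c (ENSMUSG00000001403, chr2:164769898-164778822 on the plus strand of GRCm38), encoding the ubiquitin-conjugating enzyme of the anaphase-promoting complex, stood at 2.24 and 2.38 FPKM in control 1 and 2 against 8.06 and 8.55 in CIH 1 and 2 and at 3.93 in control 3 and 11.4 in CIH 3. Replicates of each group differed far less than the groups, and the log2 change was 1.49 (SE 0.081, limma adjusted p = 0.000861). Cdc20, the activator of that complex and the target of the spindle checkpoint, stood at 4.33 and 5.81 FPKM in control 1 and 2 against 9.8 and 9.79 in CIH 1 and 2 and at 1.71 in control 3 and 5.62 in CIH 3, with a log2 change of 0.84 (SE 0.13, limma adjusted p = 0.00997). The controls differed more than the CIH libraries, and without CIH 1 the call was lost (adjusted p = 0.0559).

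Pttg1 encodes securin, the inhibitor of separase, and Espl1 encodes separase, the protease that cuts cohesin. Pttg1 rose by a log2 change of 0.51 (SE 0.11, limma adjusted p = 0.0222), a call lost without control 1 or CIH 1 (adjusted p up to 0.0667). Espl1, which was not tested, stood at 0.484 and 0.519 FPKM in control 1 and 2 against 1.35 and 1.67 in CIH 1 and 2 and at 0.396 in control 3 and 1.43 in CIH 3. The CIH value was the higher one in every pair for both genes.

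All 8 genes of the spindle and of cytokinesis rose. Ckap2 (ENSMUSG00000037725, chr8:22168160-22185819 on the minus strand of GRCm38), a protein that stabilises spindle microtubules, stood at 0.798 and 0.50 FPKM in control 1 and 2 against 3.2 and 3.54 in CIH 1 and 2 and at 0.644 in control 3 and 6.24 in CIH 3. Control values lay under 1 FPKM in all 3 controls, and the log2 change was 1.41 (SE 0.11, limma adjusted p = 0.00172). Tpx2, which activates Aurka and starts microtubules near chromosomes, stood at 3.0 and 2.96 FPKM in control 1 and 2 against 7.37 and 7.99 in CIH 1 and 2 and at 1.43 in control 3 and 12.7 in CIH 3. Tpx2 had a log2 change of 1.12 (SE 0.082, limma adjusted p = 0.00152), and its log2 difference of 2.49 in the replicate 3 pair was the largest after that of Top2a. Nusap1, a microtubule bundler of the spindle, stood at 1.11 and 1.06 FPKM in control 1 and 2 against 3.0 and 3.36 in CIH 1 and 2 and at 1.17 in control 3 and 5.86 in CIH 3, with a log2 change of 1.0 (SE 0.074, limma adjusted p = 0.00157).

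The other 5 of these genes had log2 changes from 0.33 to 0.88. Hmmr, a spindle and hyaluronan-binding protein, and the cytokinesis proteins Racgap1, Prc1 and Ect2 had log2 changes of 0.88, 0.81, 0.69 and 0.66. Racgap1 and Ect2 act together to switch on the GTPase RhoA at the cell equator, and Prc1 bundles the microtubules between the separating chromosomes. Anln (anillin), which links the contractile ring to the membrane, had the smallest log2 change of this group, 0.33 (SE 0.074, limma adjusted p = 0.0237). Its call was lost in 6 of 14 alternatives: with each library left out in turn (adjusted p 0.053 to 0.0953), with no filter on low values (0.0517) and when scaled by totals (0.075).

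The 2 genes of the mitotic chromosome had the largest median log2 change of the role groups, 1.48. Top2a (ENSMUSG00000020914, chr11:98992943-99024189 on the minus strand of GRCm38), topoisomerase II alpha, which untangles sister chromatids, stood at 2.01 and 1.93 FPKM in control 1 and 2 against 8.37 and 8.97 in CIH 1 and 2 and at 1.59 in control 3 and 16.3 in CIH 3. The replicates were close together, and no control of either kind of table came near a CIH library. Its log2 change was 1.70 (SE 0.081, limma adjusted p = 0.000737), an FPKM ratio of 4.4, and it ranked 13 among all 10976 tested genes by log2 change. Mki67 (ENSMUSG00000031004, chr7:135689784-135716361 on the minus strand of GRCm38), encoding the proliferation marker Ki-67 that coats mitotic chromosomes, stood at 1.36 and 1.03 FPKM in control 1 and 2 against 4.01 and 4.41 in CIH 1 and 2 and at 0.65 in control 3 and 7.79 in CIH 3. Its control values were a little apart, its groups did not overlap, and its log2 change was 1.25 (SE 0.10, limma adjusted p = 0.00199). Top2a also had the largest log2 difference of the 43 in the replicate 3 pair, 2.74, followed by Tpx2 and by Mki67 (2.41).

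The sizes of the changes were compared between the 2 kinds of table. Across the 43 genes, the log2 change in replicates 1 and 2 and the log2 difference in the replicate 3 pair correlated at r = 0.583 (rho = 0.557), whereas over all 10976 tested genes r was 0.175 (rho = 0.0989). These correlations are descriptions across genes that share their libraries. The difference was larger in the replicate 3 pair for 39 of the 43 genes. The exceptions were Cdca3, Plk1, Ttk and Ube2c. The median over all tested genes was also larger in that pair, 0.26 against -0.01 in replicates 1 and 2. The scatter of changes in both kinds of table places all 43 in the quadrant of higher values in CIH.

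**Figure D3:**
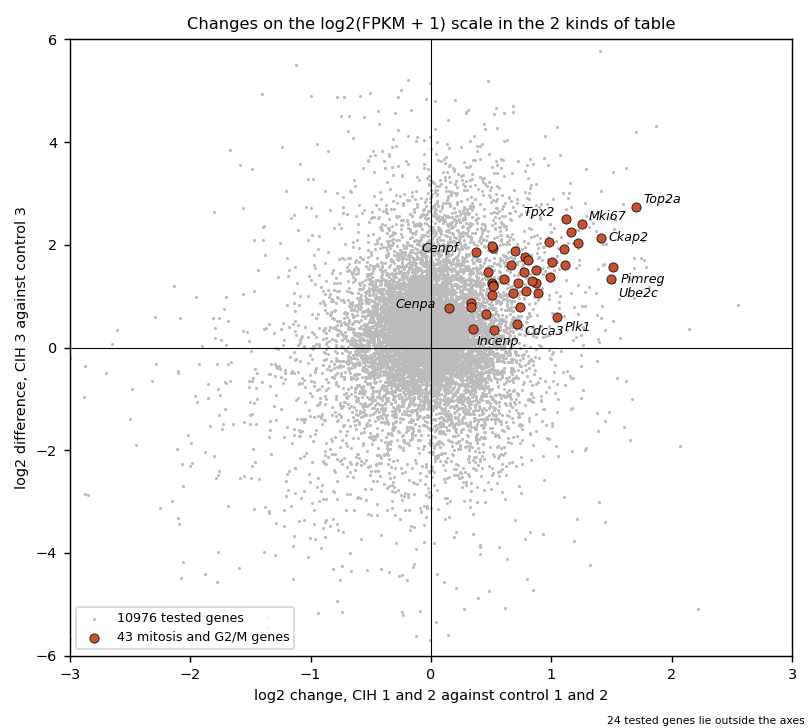
Log2 change in replicates 1 and 2 (x axis) against the log2 difference of the replicate 3 pair (y axis), both on the log2(FPKM + 1) scale, for 10976 tested genes (grey) and the 43 members (red). All 43 lie above 0 on both axes, with Top2a at the upper right and Cenpa nearest to 0 in replicates 1 and 2; 24 tested genes lie outside the axes.

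A fit of all 6 libraries in which table type was a term called 2 members, Ube2c (limma adjusted p = 0.0343) and Pimreg (0.0445), both higher in CIH. Of all tested genes, 0.182% were called higher in that fit. This fit estimates a single effect from both kinds of table. Top2a had a log2 change of 2.05 (SE 0.25) and an adjusted p of 0.0535. With the replicate number as a block, limma called 0 members and 0 of all tested genes at that threshold. At an unadjusted p under 0.05, 30 members were higher, against 544 of all 10976 tested genes. The count also depended on scaling, with 17 members called under median-of-ratios scaling, 13 under upper-quartile scaling and 0 with totals. Over all tested genes, 107, 78 and 0 were called higher under these scalings.

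Counts differed among the other gene lists of the cell cycle, beside 18.2% that rose and 20.9% that fell over all tested genes. Of the 12 further kinesins of mitosis, all 7 tested ones rose, with a median log2 change of 0.81 over the 12. Kif20a, needed for cytokinesis, stood at 1.77 and 1.78 FPKM in control 1 and 2 against 5.17 and 5.9 in CIH 1 and 2, with a log2 change of 1.23 (SE 0.088, limma adjusted p = 0.00146). Kif11, the motor that pushes spindle poles apart, stood at 0.71 and 0.556 FPKM in control 1 and 2 against 2.38 and 2.37 in CIH 1 and 2, with a log2 change of 1.05 (SE 0.069, limma adjusted p = 0.0013). Groups of both kinesins were well separated in replicates 1 and 2.

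Genes of S phase were higher as well. Of 22 tested S phase genes 20 rose and 0 fell, against 18.2% and 20.9% of all tested genes. Their median log2 change was 0.63 over the 23 listed. Mcm5, a subunit of the replicative helicase, stood at 1.75 and 2.31 FPKM in control 1 and 2 against 9.0 and 9.56 in CIH 1 and 2, a log2 change of 1.77 (SE 0.12, limma adjusted p = 0.0013), and Uhrf1, which carries DNA methylation through replication, had a log2 change of 1.52 (SE 0.090, limma adjusted p = 0.00104). Other kinetochore and checkpoint genes divided: 16 of 28 tested ones rose, 0 fell and 12 did not pass, with a median of 0.39 over 34. Zwilch, of the complex that loads dynein on kinetochores, had a log2 change of 0.90 (SE 0.077, limma adjusted p = 0.00226). Sgo1, the guardian of centromeric cohesion, had a log2 change of 0.85 (SE 0.080, limma adjusted p = 0.0028). At an unadjusted p under 0.05, limma gave 0 S phase genes and 1 of the other kinetochore and checkpoint genes as lower. Of all 10976 tested genes, 2941 were lower by that measure.

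In 2 lists of proteins that act in mitosis, most tested genes did not pass. This was also so over all tested genes, of which 18.2% rose and 20.9% fell. Of 17 tested genes of the anaphase-promoting complex and its regulators, 4 rose and 13 did not pass, with a median log2 change of 0.14. The risers included Fbxo5 (Emi1), an inhibitor of the complex made in S and G2 phase, at 0.89 (adjusted p = 0.00861). They also included the subunit Anapc13, at 0.53 (adjusted p = 0.0349), which was lower in CIH 3 than in control 3 and whose call was lost with the replicate block and without control 1 or CIH 1 (adjusted p up to 0.14). No gene of this list was lower at an unadjusted p under 0.05 in limma, against 2941 of all 10976 tested genes. Of 18 tested condensin and cohesin genes, 6 rose, 2 fell and 10 did not pass, with a median of 0.05 over 19. Ncaph, a condensin subunit used in mitosis, rose by a log2 change of 0.79 (adjusted p = 0.00616), as did Smc2, the condensin ATPase, by 0.72 (adjusted p = 0.0241). Without CIH 1 or CIH 2 Smc2 did not pass (adjusted p up to 0.0918).

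The G1/S regulators that drive entry into the cycle passed in about the same shares as all tested genes. Of 11 tested G1/S cyclins, kinases and E2F factors, 2 rose, 2 fell and 7 did not pass, against 18.2% that rose and 20.9% that fell over all genes. Ccnd1 encodes cyclin D1, which carries growth signals into the cycle, and it stood at 1.97 and 2.07 FPKM in control 1 and 2 against 8.2 and 9.45 in CIH 1 and 2 and at 1.84 in control 3 and 51.2 in CIH 3. Its log2 change was 1.70 (SE 0.096, limma adjusted p = 0.00094), and CIH values were above control values in both kinds of table. Cdk6, a partner of D cyclins, fell by 0.49 on the log2 scale (adjusted p = 0.0274) but was higher in CIH 3 than in control 3. Its call was lost without control 1, CIH 1 or CIH 2, with upper-quartile scaling and with the replicate block (adjusted p up to 0.13).

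The DREAM and MuvB proteins, which repress mitotic genes in resting cells, included 2 that rose, 4 that fell and 5 that did not pass. Over all tested genes 18.2% rose and 20.9% fell, and neither this list nor the next was tested against these shares. Rbl2 (p130), the pocket protein of the repressor, stood at 6.85 and 6.72 FPKM in control 1 and 2 against 3.77 and 3.96 in CIH 1 and 2 and at 13.7 in control 3 and 24.9 in CIH 3. It was lower in CIH in replicates 1 and 2, a fall of 0.68 on the log2 scale (adjusted p = 0.00443), and higher in CIH 3. Tfdp2, the partner of E2F factors, had the same pattern, with a fall of 0.50 (adjusted p = 0.00564). Of 6 tested inhibitors of cyclin-dependent kinases, 2 rose, 2 fell and 2 did not pass. Cdkn1b (p27), an inhibitor that accumulates in resting cells, stood at 9.55 and 10.4 FPKM in control 1 and 2 against 5.76 and 6.28 in CIH 1 and 2 and at 24.4 in control 3 and 97.9 in CIH 3. Its groups were in opposite order in the 2 kinds of table, and in replicates 1 and 2 it fell by 0.65 (adjusted p = 0.00667). Cdkn2a, the Ink4a/Arf locus, rose by a log2 change of 0.54 (adjusted p = 0.0102), and without CIH 1 it did not pass (adjusted p = 0.0561).

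Over these 8 lists together, 59 of 120 tested genes rose and 10 fell, against 18.2% and 20.9% of all tested genes. The median log2 change was 0.31 over 138 listed genes. Without CIH 1 or CIH 2 the count that rose was 36 and 37. Whether the 43 members differ from these lists was not tested.

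**Figure D4:**
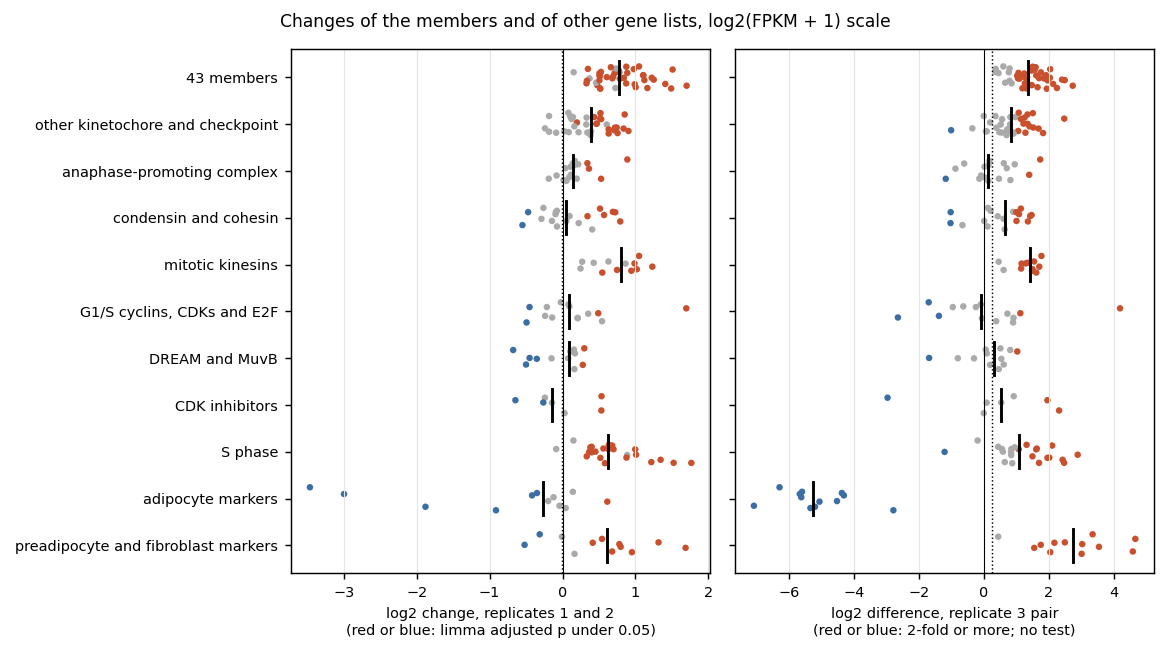
Change of each gene (points) of the 43 members and of 10 other lists on the log2(FPKM + 1) scale, in replicates 1 and 2 (left) and in the replicate 3 pair (right), with the list median (black bar) and the median of all tested genes (dotted line). Red and blue mark genes called higher and lower in CIH on the left and genes at least 2-fold apart on the right, and grey marks the rest; all 43 members and all 12 mitotic kinesins lie to the right of 0 in both panels, as do 22 and 21 of the 23 S phase genes, and all 12 adipocyte markers lie to the left in the replicate 3 pair.

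Markers of adipocytes and of fibroblasts also differed between the groups. Over all tested genes, 20.9% fell and 18.2% rose in replicates 1 and 2. In the replicate 3 pair, 11.8% were at least 2-fold lower in CIH 3 and 21.8% at least 2-fold higher. Of 12 adipocyte markers, 6 fell and 1 rose in replicates 1 and 2, with a median log2 change of -0.27, while in CIH 3 all 12 lay at least 2-fold below control 3. Cfd, or adipsin, stood at 1013 and 1214 FPKM in control 1 and 2 against 113 and 87.4 in CIH 1 and 2, a log2 change of -3.47 (SE 0.17, limma adjusted p = 0.000746). Retn, or resistin, had a log2 change of -3.0 (SE 0.11, limma adjusted p = 0.000516). The marker that rose was Cd36, by 0.61 (limma adjusted p = 0.0391), a call that held in only 7 of 14 alternatives. It was lost, among others, with the replicate block, with a pseudocount of 0.1 and with no filter on low values. Of 11 tested markers of preadipocytes and fibroblasts, 8 rose and 2 fell in replicates 1 and 2, with a median log2 change of 0.61 over 12, while in CIH 3 11 lay at least 2-fold above control 3. Their levels summed to 419 and 450 FPKM in control 1 and 2 against 674 and 676 in CIH 1 and 2, and to 1229 in control 3 against 7402 in CIH 3. Among them S100a4 stood at 0 in control 1 and Cd34 at 0 in control 2, CIH 1 and CIH 2. Thy1, a surface protein of fibroblasts, had a log2 change of 1.32 (SE 0.086, limma adjusted p = 0.0013), and S100a4, a calcium-binding protein of mesenchymal cells, one of 1.69 (SE 0.13, limma adjusted p = 0.00181). The 2 that fell were Ly6a, with a log2 change of -0.52 (limma adjusted p = 0.016), and Pdgfra, with -0.31 (0.0342). The call of Pdgfra held in only 8 of 14 alternatives and was lost, among others, with the replicate block and with upper-quartile scaling.

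Endothelial markers were near 0, and of the macrophage markers Cd14 and Cd68 were present. The 6 macrophage markers summed to 6.30 to 9.29 FPKM in the controls and to 7.71 to 12.5 in CIH, mostly from Cd14 and Cd68, neither of which passed the test of CIH against control. Adgre1 was at 0 in all 6 libraries, and Ptprc was at 0 in all but CIH 2, where it was 0.00199. The 5 endothelial markers summed to 0.338 to 0.538 FPKM in the controls and 0.168 to 1.02 in CIH. The part of the marker changes in the changes of the mitotic genes was not tested.

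Promoter motifs were compared with the size of the change as a description only. The 25 members with a cell cycle homology region in a window had a median log2 change of 0.74 in replicates 1 and 2, and the 10 members without one had 0.73. Medians were 0.77 for the 23 members with both motifs and 0.65 for the other 12. Ccnb1 and Nusap1, without a homology region in the window, had log2 changes of 1.22 and 1.0, and Cenpa, with both motifs, one of 0.15.

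Some members share exon sequence with a neighbouring gene, and the use of strand in the counting was not given in the sources used here. Ube2c shares 22.8% of its exon bases with Tnnc2 on the opposite strand, and Tnnc2 was at 0 in the gene tables. Ccna2 shares 12.5% with Exosc9 (mean of 4.13 FPKM in the gene tables) and Prc1 11.1% with Rccd1 (1.04 FPKM). Cdc20 shares 2.84% with the more highly expressed Elovl1 (30.7 FPKM) and Cdc25b 2.47% with Spef1 (5.01 FPKM). Cdca8 shares 4.48% with 9930104L06Rik (2.31 FPKM) and Nusap1 4.24% with Oip5 (1.5 FPKM). Reads of Ccnb1 and Ccnb2 could also be divided with their pseudogenes Ccnb1-ps and Ccnb2-ps, so the levels of these genes are uncertain to that extent.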

How the data were processed

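The deposited values are FPKM, a unit read from the values, since the file headers give sample names only. For the transcript tables of replicate 3 the unit is assumed to be the same. Per the submitters' processing notes, featureCounts 1.5.0-p3, DESeq 1.8.3 and the GRCm38 build were used, with no role stated for each. In the gene tables, FPKM times the exon length of GENCODE mouse release 21 gave whole fragments (within 0.05) for 98.4% to 98.6% of low genes, from which the depths were taken. Repeated gene IDs of the transcript tables were summed.

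Values were taken as log2(FPKM + 1). The 10976 genes present in all 6 files with a mean of at least 1 FPKM entered limma 3.58.1 with a trended empirical Bayes step (run in R 4.3.3), control 1 and 2 against CIH 1 and 2, with Benjamini-Hochberg adjustment. The replicate 3 pair had no test and was called at 2-fold. Tables were made with Python 3.11.15.

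All 43 members were accounted for by role. Full values were given for called members with up to the 3 largest changes per role, and from each other list for up to 2 called genes with the largest changes; further members were added where their calls or levels stood out. The members and lists were chosen with earlier results of these data known.

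Same-numbered libraries deviated together over the 6 libraries (r = 0.529, 0.587 and 0.582), so replicate numbers count as pairs under a rule of r over 0.1 in every pair. These correlations, not the labels, give the pairing. It separates replicate 3, the other kind of table, from the rest. Within replicates 1 and 2 the correlation was -0.178, which gives no pairing there, and their main test was unpaired.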

Additional observations from a re-analysis of the deposited data

How the results depend on the processing

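Of the 39 tested members, 30 passed in every alternative run on them, and no member changed sign under any of them. The count of members that rose in replicates 1 and 2 stayed within 30 and 40 and the count that fell was 0 throughout. With each library left out in turn (1 library then stands alone in its group and is assumed to vary like the others), 30 to 35 members rose, 30 of them without CIH 1. With a replicate block, 36 rose. Crossed pairs (control 1 with CIH 2), chosen after seeing the data, gave 38 members and 4510 calls over all genes, against 3332 with the block and 4292 without. Among the members the block ended the calls of Incenp and Mad2l1 and lowered the 6-library count.

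Among the 8 other cell cycle lists, 36 to 54 genes rose and 3 to 9 fell with each library left out; 18 fell when scaled by totals and 6 by upper quartile. The 6-library fit called 4 members with a pseudocount of 0.1, 0 with no filter on low values, 0 when scaled by totals, 17 by median of ratios, 13 by upper quartile, 0 with a replicate block and 0 with no term for the kind of table (chosen after seeing the data). Leave-one-out counts ran from 0 to 38; without control 3 or CIH 3 that fit reduces to replicates 1 and 2. The median log2 change of the 43 in replicates 1 and 2 was 1.29 and 0.99 with pseudocounts of 0.1 and 0.5, 0.70 scaled by totals, 0.84 by upper quartile, and 0.73 to 0.82 with each library left out. In the replicate 3 pair the median log2 difference was 2.01 and 1.69 with these pseudocounts, 1.83 scaled by totals, 1.09 by median of ratios and 1.29 by upper quartile. The median of all genes moved to 0.84 with totals and to -0.13 with median of ratios. Relative to it, the median of the 43 was 1.72 and 1.41 with the pseudocounts, 0.99 with totals and 1.22 with median of ratios. Members at least 2-fold higher in CIH 3 numbered 25 to 39. The causes of these shifts were not tested. The thinnest value, that of Spc24 in control 1, rests on 10 fragments.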

Other observations

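Spacing of the CCAAT boxes was not compared with expression above. In 1 promoter window for each of 35 members, 18 held at least 2 CCAAT matches, which gave 36 distances between neighbours. Of these, 11 measured 31 to 34 bases, a range for which no share over all windows was computed. Of 34 matches to the cell cycle homology region in these windows, 24 lay within 50 bases of the annotated start, in 23 members. Top2a held the most matches, 6 to CCAAT and 4 to the homology region, and it was the member with the largest log2 change in replicates 1 and 2. Ube2c held 6 and 1, and Ckap2, which ranked 46 among all tested genes by log2 change, held 1 of each. Hmmr held 5 and 1 and Cdca8 4 and 1, with log2 changes of 0.88 and 0.51. The number of matches was not tested against the size of the change.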
